A study of Rattus norvegicus with 6 samples.

Results

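INS-1E is a rat insulinoma line that secretes insulin. The genes described here belong to glucose uptake, to the addition or removal of its first phosphate and, for Pfkfb2, to the control of phosphofructokinase. The set was defined by gene symbol as the glucose transporters Slc2a1, Slc2a2 and Slc2a3, the hexokinases Hk1 and Hk2, the glucose-6-phosphatases G6pc2 and G6pc3, and the bifunctional regulator Pfkfb2. Of these 8 genes, 7 were matched by symbol to a row among the 19289 features listed, and the expression of G6pc2 was not analysed here. Untreated INS-1E cells (3 libraries) were compared with INS-1E cells exposed to uric acid for 24 hours (3 libraries). The labels name no engineered allele, and both groups come from the same tumour-derived line. No uric acid dose or vehicle is named in the labels. Nothing there ties a replicate to its own culture, so p-values measure the spread among 6 libraries, which may be technical.

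Beta cells respond to glucose by metabolising it, and the first steps set how much enters. GLUT2, the product of Slc2a2, is a transporter of low affinity and high capacity that lets sugar equilibrate across the membrane, while GLUT1 (Slc2a1) and GLUT3 (Slc2a3) bind glucose more tightly. Phosphorylation to glucose 6-phosphate then traps the sugar in the cell, and the high-affinity hexokinases of Hk1 and Hk2, which carry it out in many other tissues, are normally held low in beta cells. Glucose-6-phosphatases reverse the step, and the enzyme of Pfkfb2 makes and breaks down the fructose bisphosphate that activates phosphofructokinase.

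Estimated counts per library summed to between 47858248 and 59092982 (untreated) or between 41191819 and 48875962 (uric acid). The labelled cell type was checked against beta-cell markers: all 13 listed markers, insulin among them, had a mean level of at least 1 FPKM (fragments scaled to transcript length and library depth, so a level per length). Of 14 markers of other islet, exocrine, duct, stromal, immune and endothelial cells, 9 had a row, and 8 of these had a mean under 1 FPKM. The remaining one was Gcg, the glucagon gene, at 8.6 ± 2.72 FPKM in untreated and 9 ± 1.55 FPKM in uric acid libraries (mean ± SD, n = 3 per group). The summed level of these other markers ranged from 7.21 to 12.2 FPKM in untreated and from 9.58 to 11.9 FPKM in uric acid libraries.

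The promoters of 4 of the genes are shown because they belong to the highest member (Slc2a2), to its lower partner (Slc2a1), to a member near the limit of detection (Hk2) and to the member whose window held a pair of E-boxes (G6pc3). Each runs from 250 bases before to 30 bases after the start annotated by RefSeq in the build GRCr8, which need not be the build of the expression table. Capitals mark the motifs that were searched on both strands, so a motif can appear as its reverse complement:
Slc2a2, chr2:113540120-113540399, plus strand: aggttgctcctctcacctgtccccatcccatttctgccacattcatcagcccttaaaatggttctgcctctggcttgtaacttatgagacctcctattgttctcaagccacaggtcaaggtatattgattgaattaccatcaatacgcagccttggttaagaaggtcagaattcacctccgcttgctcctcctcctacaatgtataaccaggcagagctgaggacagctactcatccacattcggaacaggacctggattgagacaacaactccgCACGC
Slc2a1, chr5:138002272-138002551, plus strand: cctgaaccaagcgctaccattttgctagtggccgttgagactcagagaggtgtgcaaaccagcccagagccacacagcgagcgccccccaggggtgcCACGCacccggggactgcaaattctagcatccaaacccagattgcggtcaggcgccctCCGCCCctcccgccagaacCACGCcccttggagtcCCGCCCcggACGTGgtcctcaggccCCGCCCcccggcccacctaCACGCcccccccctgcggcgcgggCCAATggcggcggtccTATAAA
Hk2, chr4:116841246-116841525, minus strand: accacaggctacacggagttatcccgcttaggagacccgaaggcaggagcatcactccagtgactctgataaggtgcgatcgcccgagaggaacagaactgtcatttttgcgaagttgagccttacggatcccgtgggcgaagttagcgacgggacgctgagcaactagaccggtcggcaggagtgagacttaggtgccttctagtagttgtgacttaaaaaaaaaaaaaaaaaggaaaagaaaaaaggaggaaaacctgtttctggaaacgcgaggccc
G6pc3, chr10:87646899-87647178, plus strand: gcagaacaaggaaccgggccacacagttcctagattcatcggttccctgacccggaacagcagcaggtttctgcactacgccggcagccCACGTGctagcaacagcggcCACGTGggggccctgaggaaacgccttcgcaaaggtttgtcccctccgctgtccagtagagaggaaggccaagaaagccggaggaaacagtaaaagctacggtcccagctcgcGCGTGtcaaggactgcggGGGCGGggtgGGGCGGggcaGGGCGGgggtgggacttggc

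The Slc2a2 window held 5 CpG at a GC content of 48.2%, close to the typical window, since the median of all 33469 RefSeq promoter windows of this length was 6 CpG and 51.4%. Slc2a1 had 22 CpG at 68.2% GC, G6pc3 had 20 CpG at 63.9% GC, and Hk2 had 17 CpG at 50.4% GC. CpG content did not follow the level among these 4, since Hk2 with 17 CpG was near 0 FPKM and Slc2a2 with 5 CpG was the highest member. The motifs searched were the E-box, spelled CACGTG, and the hypoxia element core in its A form, ACGTG. The core was also searched in its G form, spelled GCGTG. The TATA box was spelled TATAAA. For the sites of NF-Y the letters were CCAAT. The GC box of SP1 was spelled GGGCGG. The CEBP-ATF composite element was spelled TGATGNAA. A homeodomain site was searched as TAATTA. For the core of the MAF element the letters were TGCTGAC. The A form of the hypoxia core lies within the E-box, so each E-box also counts there. G6pc3 held 2 E-boxes, at bases 90 and 110 of its window, and 6.18% of all windows hold at least 1. It also held 3 GC boxes and 1 hypoxia core of the G form. Slc2a1 held 3 GC boxes (present in 32.2% of windows), 1 hypoxia core of the A form (18.2%) and 3 of the G form (28.3%). Its NF-Y letters (1 site, 36.2%) and TATA letters (1 site, 13.7%) began at bases 259 and 275, both after the annotated start. Slc2a2 held 1 hypoxia core of the G form, at base 276 and so also after the annotated start. Hk2 held none of the 9 motifs, and Pfkfb2, not printed, held 1 composite element (3.76% of windows) and 2 MAF cores (4.11%). The homeodomain site, present in 5.17% of windows, was in none of the 8 member windows (Hk1 has 2 starts and Slc2a3 was not matched), G6pc2 included. These matches are descriptions of letters in a window and not measured binding sites.

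The 7 genes stood at 3 levels far apart. Averaged over the 6 libraries, Slc2a2 stood at 327 FPKM and ranked 174 of 19289 features, while G6pc3 stood at 29.1, Pfkfb2 at 19.7 and Slc2a1 at 19 FPKM. Slc2a3, Hk2 and Hk1 stood at 0.129, 0.104 and 0.0577 FPKM, so the gap between Slc2a1 and Slc2a3 was 147-fold. Slc2a2 was above G6pc3 and G6pc3 above Pfkfb2 in all 6 libraries. Pfkfb2 and Slc2a1 could not be ordered, Pfkfb2 being higher in 3 of 6 libraries, and the order among the lowest members was as unsettled, with Slc2a3 above Hk2 in 3 and Hk2 above Hk1 in 4 of 6 libraries.

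**Figure D1:**
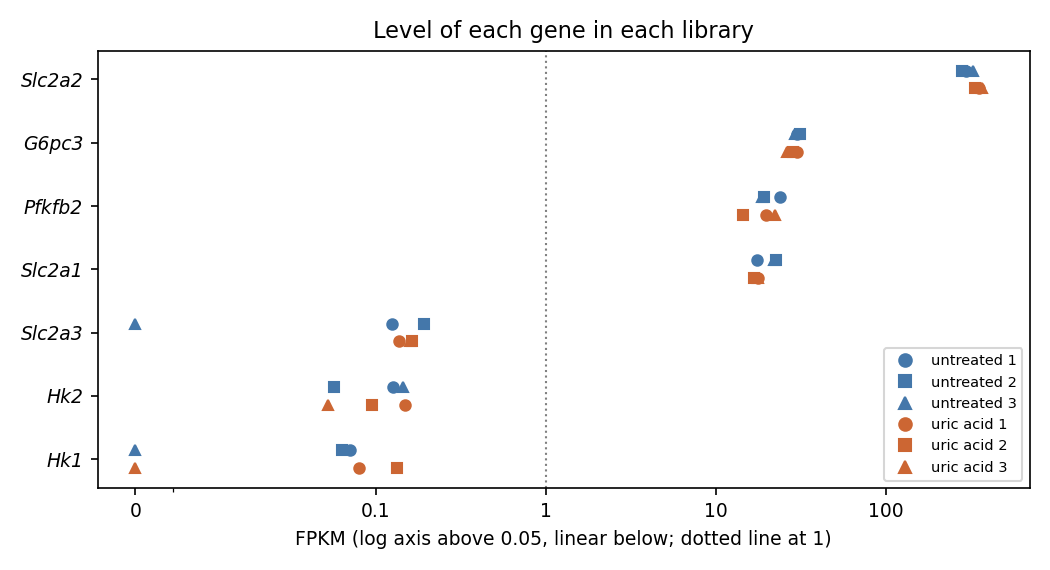
Level of each gene in each library, in FPKM on a horizontal axis that is logarithmic above 0.05 and linear below, with untreated libraries in blue above and uric acid libraries in orange below on each row and the marker shape giving the replicate. Slc2a2 lies near 327 FPKM, G6pc3, Pfkfb2 and Slc2a1 lie between 14.5 and 31.2 FPKM, and Slc2a3, Hk2 and Hk1 lie below 0.2 FPKM, with Hk1 at 0 in 2 libraries and Slc2a3 at 0 in 1.

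No member passed the test for a difference with uric acid. Features with a mean of at least 1 FPKM were tested, 12460 in all, with edgeR's quasi-likelihood test on the counts. The threshold was a two-sided p under 0.05 after Benjamini-Hochberg adjustment across these 12460 tests. Of all tested features 7.98% passed, 4.99% higher and 2.99% lower, and among the members 0 of the 4 tested did (0 with DESeq2 and 0 with limma). At an unadjusted p under 0.05 the count was 2 of 4, Slc2a1 and Slc2a2, against 25.7% of all features. The groups did not overlap for 1 of the 4, Slc2a2, against 31% of all features (16.8% with uric acid above). The median log2 fold change of the 4 tested members was -0.11, against 0.00 for all tested features. Of the 13 beta-cell markers, 1 fell (Mafa) and 0 rose, and 4 passed an unadjusted p under 0.05 (edgeR), against 25.7% of all features. The groups did not overlap for 4 of the 13, against 31% of all features in either direction. These were Mafa, Pdx1, Nkx6-1 and Kcnj11, all lower with uric acid (14.2% of all features). Pdx1 (log2 fold change -0.26, edgeR adjusted p = 0.0699), Nkx6-1 (-0.16, 0.18) and Kcnj11 (-0.09, 0.379) missed the threshold. The log2 fold changes of the 13 markers ran from -0.46 to 0.13, with a median of -0.06. The part of the 13 markers in the members' values was not tested. In these bulk libraries a change in level per cell and a change in the share of cells that express a gene cannot be told apart.

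Slc2a2 was at 295, 281 and 325 FPKM in untreated libraries 1, 2 and 3, against 355, 336 and 369 FPKM in uric acid libraries 1, 2 and 3. Every uric acid library lay above every untreated library, the closest being untreated library 3 and uric acid library 2. The group means were 300.3 ± 22.4 and 353 ± 16.4 FPKM (SD, n = 3 per group), 17.6% apart. The edgeR log2 fold change was 0.23 ± 0.07 (SE) with a 95% interval from 0.06 to 0.40, and the adjusted p of 0.0906 missed the threshold. The interval corresponds to a 1.05-fold to 1.32-fold higher level, and 34.1% of tested features had a larger absolute log2 fold change. With each library left out in turn the adjusted p ranged from 0.0616 to 0.322, and it passed in none of these 6 fits. The gene (ENSRNOG00000011875, 2 listed transcripts) lies on chromosome 2 from 114413410 to 114445395 on the plus strand, in the coordinates of the deposited table, for which the labels and headers name no build.

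Slc2a1, which serves basal glucose uptake in most tissues, was at 17.5, 22.6 and 22.1 FPKM in untreated libraries 1, 2 and 3, against 17.6, 16.8 and 17.6 FPKM with uric acid. Untreated library 1 sat among the uric acid libraries, and the other 2 untreated libraries lay above all of them. The means were 20.7 ± 2.78 and 17.3 ± 0.476 FPKM, and the edgeR log2 fold change was -0.26 ± 0.10 (95% interval from -0.49 to -0.03, adjusted p = 0.157). Without untreated library 1 it was -0.37 and passed (adjusted p = 0.0496). Without any other single library it did not pass, and the adjusted p reached 0.432. Slc2a1 (ENSRNOG00000007284) lies on chromosome 5 from 138154673 to 138182897 on the plus strand.

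Slc2a3, the high-affinity transporter best known from neurons, was at 0.126, 0.192 and 0 FPKM in untreated and at 0.138, 0.163 and 0.159 FPKM in uric acid libraries 1, 2 and 3. These values rest on 72 counts over all 6 libraries. Small nonzero counts in the table drop after 4 (of those up to 12, 13.7% equal 4 and 6.66% equal 5), so a full read pair was taken to add up to 4 counts. A listed 0 in untreated library 3 then allows a level of up to 0.132 FPKM at 3 read pairs (counting error only), and no difference was detectable at this depth. Slc2a3 (ENSRNOG00000049298) lies on chromosome 4 from 155752447 to 155763500.

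Slc2a1 was a smaller part of the transporter message in every uric acid library than in any untreated one. Slc2a1 made up 5.6, 7.42 and 6.36% of the summed FPKM of Slc2a1, Slc2a2 and Slc2a3 in the untreated group (libraries 1, 2 and 3), against 4.72, 4.75 and 4.56% in the uric acid group. For this share the groups did not overlap, whereas for the level of Slc2a1 they did. The mean share was 6.46 ± 0.913% and 4.68 ± 0.106%, and that of Slc2a2 93.5 ± 0.928% and 95.3 ± 0.107%. Of all 10 rows of the Slc2a family, Slc2a2 held 83.3 ± 1.82% and 85.2 ± 0.635% of the summed level. Slc2a1 held 5.76 ± 0.758% and 4.19 ± 0.0684% of the same sum, again with no overlap. Slc2a2 held most of both sums, so both shares of Slc2a1 also move with the level of Slc2a2 and are not separate observations. Single features had no overlap in 31% of those tested, and no such rate was worked out for shares. These shares are a description and were not tested. Slc2a3 never exceeded 0.0632% of the 3 transporters.

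**Figure D2:**
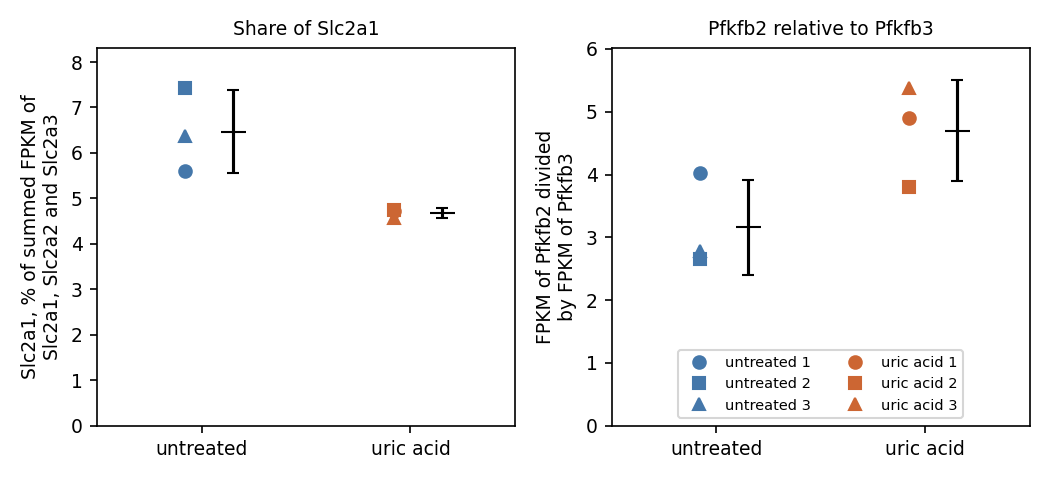
Left, the percentage of the summed FPKM of Slc2a1, Slc2a2 and Slc2a3 held by Slc2a1. Right, the FPKM of Pfkfb2 divided by that of Pfkfb3. Points are libraries, with the shape giving the replicate, and the bar beside them is the mean ± SD; the uric acid libraries lie at 4.56 to 4.75% on the left, below all untreated libraries, and on the right the untreated libraries lie at 2.66 to 4.03 and the uric acid libraries at 3.8 to 5.37, so those groups overlap.

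Hk1 and Hk2 were barely detected in either group. Hk2, the insulin-responsive hexokinase of muscle and many tumours, was at 0.127, 0.057 and 0.144 FPKM in untreated and 0.149, 0.0947 and 0.0524 FPKM in uric acid libraries 1, 2 and 3. Hk1, the hexokinase of brain and red cells, was at 0.0703, 0.063 and 0 FPKM in untreated and 0.0796, 0.133 and 0 FPKM in uric acid libraries. Hk2 held 70.6 ± 26.8% of the summed FPKM of Hk1 and Hk2 in untreated and 68.9 ± 29.4% in uric acid libraries. Both means include a share of 100% in library 3, where Hk1 was listed at 0. In libraries 1 and 2 the share was 64.3 and 47.5% untreated, and 65.2 and 41.6% with uric acid. The groups overlapped for both genes, and the values rest on 207 counts for Hk2 and 56 for Hk1 over all libraries. The 0 values of Hk1 in untreated library 3 and uric acid library 3 allow up to 0.0753 and 0.0803 FPKM. In a fit with no filter on level, the adjusted p was 0.905 for Hk2, 0.852 for Hk1 and 0.839 for Slc2a3 (edgeR). Hk2 (ENSRNOG00000006116) lies on chromosome 4 from 113559427 to 113610243 and Hk1 (ENSRNOG00000046891) on chromosome 20 from 31912262 to 31956649, both on the minus strand.

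G6pc3, the glucose-6-phosphatase expressed in most tissues, missed the threshold, with an interval that included no change and lay mostly below it. It was at 29.9, 31.2 and 29 FPKM in untreated and 30, 28.3 and 26.1 FPKM in uric acid libraries 1, 2 and 3. Uric acid library 1 lay among the untreated libraries and the other 2 below them. The means were 30 ± 1.1 and 28.1 ± 1.97 FPKM, and the edgeR log2 fold change of -0.10 ± 0.08 had a 95% interval from -0.27 to 0.08 (adjusted p = 0.466), so a change beyond a 0.827-fold or 1.06-fold level lies outside it. G6pc3 (ENSRNOG00000020902) lies on chromosome 10 from 90134193 to 90138425 on the plus strand. The liver enzyme, listed as G6pc, was at most 0.048 FPKM in any library.

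Pfkfb2, whose product sets the activator of phosphofructokinase, had the largest standard error of the 4 tested members. It was at 23.7, 19.2 and 18.6 FPKM in untreated and 19.8, 14.5 and 22.3 FPKM in uric acid libraries 1, 2 and 3. The groups overlapped, with uric acid library 2 the lowest and untreated library 1 the highest. The means were 20.5 ± 2.75 and 18.9 ± 3.98 FPKM, and the edgeR log2 fold change of -0.12 ± 0.15 had a 95% interval from -0.46 to 0.22 (adjusted p = 0.648). Without uric acid library 2 its sign turned, to 0.03. Pfkfb2 (ENSRNOG00000004162, 5 listed transcripts) lies on chromosome 13 from 47413458 to 47440682 on the minus strand. None of the 7 members overlaps another listed feature.

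**Figure D3:**
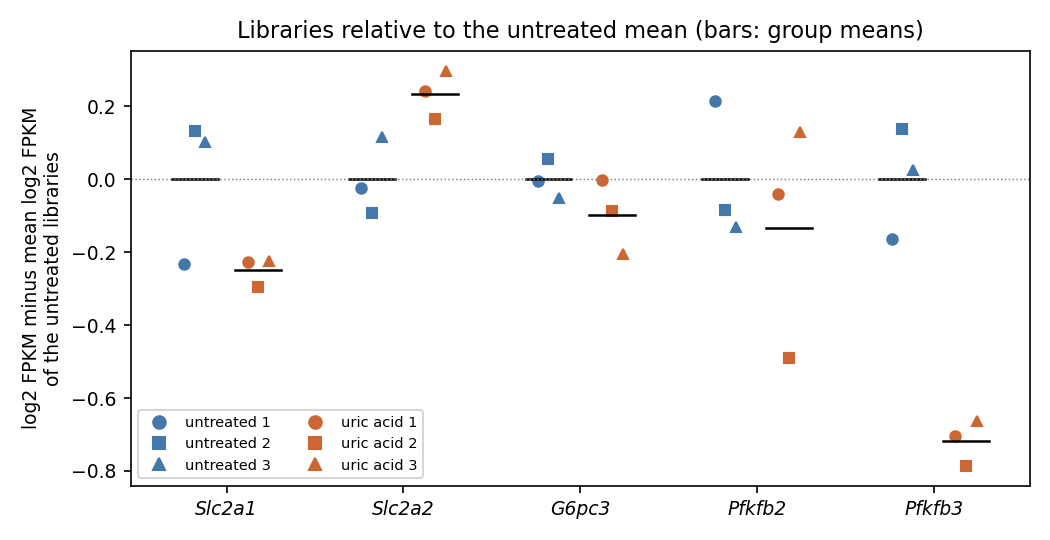
Vertical axis, log2 FPKM of each library minus the mean log2 FPKM of the untreated libraries, for the 4 tested members and for Pfkfb3. Blue points are untreated and orange points uric acid libraries, shapes give the replicate and bars the group means; the groups stand apart for Slc2a2 and Pfkfb3 and overlap for Slc2a1, G6pc3 and Pfkfb2.

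Pfkfb3, the inducible relative of Pfkfb2, fell. It was at 5.87, 7.23 and 6.7 FPKM in untreated and 4.04, 3.81 and 4.15 FPKM in uric acid libraries 1, 2 and 3 (edgeR log2 fold change -0.72 ± 0.10, adjusted p = 0.00463), with no overlap. The FPKM ratio of Pfkfb2 to Pfkfb3 was 4.03, 2.66 and 2.78 without uric acid, against 4.91, 3.8 and 5.37 with it, so the ratios overlapped. Whether the responses of Pfkfb2 and Pfkfb3 differ was not tested. Among the other genes that control this step, Pfkp, a phosphofructokinase isoform, fell from 40.7 ± 4.56 to 28.5 ± 3.49 FPKM (log2 fold change -0.51 ± 0.11, adjusted p = 0.0224). The Pfkp call was lost without untreated library 2 (adjusted p = 0.104), untreated library 3 (0.0553) or uric acid library 1 (0.0508), and with the replicate number as a block (0.0791). The list holds 9 genes, of which 7 were tested, 2 fell and none rose, against 2.99% lower and 4.99% higher of all features. The log2 fold changes of the 7 ran from -0.72 to 0.08, with a median of -0.38.

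Around glucose 6-phosphate, Slc37a1 was the gene past the threshold. Of 8 tested sugar carriers outside the set, 0 passed (edgeR), and their median log2 fold change was 0.24. At an unadjusted p under 0.05 there were 2 of these carriers, against 25.7% of all features. Slc2a9, which carries urate, was at 2.61 ± 0.25 FPKM in untreated and 3.06 ± 0.767 FPKM in uric acid libraries (log2 fold change 0.23 ± 0.19, adjusted p = 0.476). Of 3 tested genes listed with the glucose-6-phosphatase system, 1 passed, against 7.98% of all features. It was Slc37a1, a glucose 6-phosphate antiporter of the endoplasmic reticulum, which rose from 23.7 ± 0.636 to 29.4 ± 1.31 FPKM (0.31 ± 0.07, adjusted p = 0.0246). The Slc37a1 call was lost without untreated library 1 (adjusted p = 0.0797), 2 (0.138) or 3 (0.0543) or uric acid library 1 (0.104), and with the replicate block (0.0821). Slc37a4, the main glucose 6-phosphate carrier, was at 23.3 ± 1.66 and 23.6 ± 1.36 FPKM (0.02 ± 0.08, adjusted p = 0.923). Of 3 tested genes listed as other sugar kinases and their partners, 0 passed (edgeR), at a median log2 fold change of 0.05. Of 9 tested users of glucose 6-phosphate, 0 passed, at a median of -0.09. These 2 lists held 0 and 3 genes at an unadjusted p under 0.05, against 25.7% of all features.

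Among 10 tested genes that act on transporter traffic and turnover, 1 rose and none fell, against 4.99% and 2.99% of all features. It was Arrdc4, an alpha-arrestin that promotes removal of GLUT1 from the surface, with a mean of 29.2 ± 0.331 FPKM untreated and 38.4 ± 2.09 FPKM with uric acid (log2 fold change 0.39 ± 0.06, adjusted p = 0.0088). The Arrdc4 call was lost without untreated library 2 (adjusted p = 0.0664). Its relative Txnip had a mean of 13.4 ± 2.13 FPKM untreated and 13.8 ± 2.41 FPKM with uric acid (0.04 ± 0.15, adjusted p = 0.898).

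Of 11 tested transcription factors known to act on the genes of glucose uptake and phosphorylation in other work, 2 rose and 1 fell. Of all features, 4.99% rose and 2.99% fell. At an unadjusted p under 0.05 (edgeR) the count was 6 of 11, against 25.7% of all features. Foxa2 rose (log2 fold change 0.33 ± 0.06, adjusted p = 0.0175). Its adjusted p was 0.0629 without untreated library 1, 0.103 without untreated library 2 and, with the replicate block, 0.0757. Mafa fell (-0.46 ± 0.08, adjusted p = 0.0129), lost without untreated library 1 (adjusted p = 0.0564) or uric acid library 1 (0.071). Myc rose (2.29 ± 0.33, adjusted p = 0.00537) and passed with any single library left out. Its untreated level of 1.27 ± 0.26 FPKM was close to the filter of 1 FPKM. The uric acid libraries 1, 2 and 3 were uneven, at 5.33, 9.77 and 3.73 FPKM. The list's median log2 fold change was -0.08. Over all of these lists 51 genes were tested, of which 4 rose and 3 fell, 13.7%, beside the 7.98% of all features. The lists were chosen with earlier results of these data known, so these counts and shares, and those below, are a description only. Without untreated library 1 the count was 4 (7.84%, beside 2.87% of all features), without untreated library 2 it was 3 (5.88% beside 1.85%) and without uric acid library 1 it was 4 (7.84% beside 2.4%). With the replicate block it was 4 (7.84% beside 2.58%), and with DESeq2 12 (23.5% beside 14.1%).

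**Figure D4:**
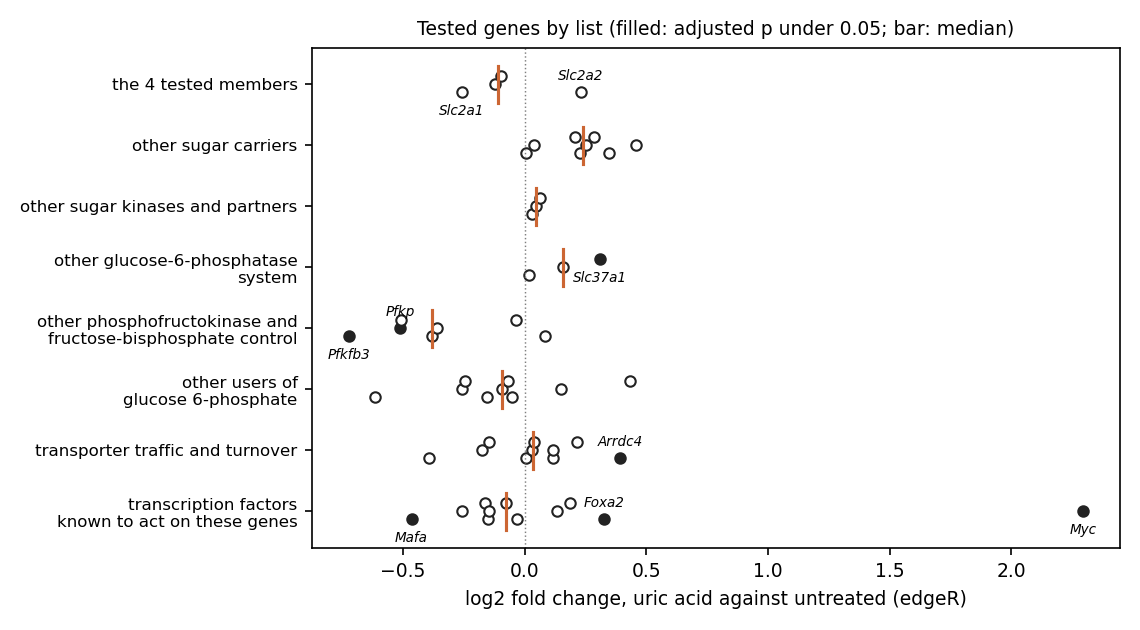
Horizontal axis, edgeR log2 fold change of uric acid against untreated, for the 4 tested members and for the tested genes of each other list, 1 row per list. Filled points passed an adjusted p under 0.05, open points did not, and the vertical bar is the list's median; the members lie between -0.26 and 0.23 with none filled, and the 7 filled points are Slc37a1, Pfkfb3, Pfkp, Arrdc4, Foxa2, Mafa and Myc.

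Slc2a2, the member with the smallest p, was set beside every other tested feature by Pearson's r of log2(FPKM + 1) over the 6 libraries. The genes with the highest r were Fscn3, a fascin, at 0.996, Nrep, a neuronal regeneration protein, at 0.992, and Rad21, a cohesin subunit, at 0.99. Fscn3 was low, at 0.879 ± 0.19 FPKM in untreated and 1.42 ± 0.184 FPKM in uric acid libraries (mean ± SD). Its mean thus met the filter of 1 FPKM only through the uric acid libraries, where it was higher. None of the 3 passed the edgeR test, with log2 fold changes of 0.70 ± 0.24 for Fscn3 (adjusted p = 0.106), 0.26 ± 0.15 for Nrep (0.315) and 0.13 ± 0.06 for Rad21 (0.221). An r of at least 0.95 was reached by 44 of 12459 features (0.353%). With 6 points in 2 groups and this many features to choose from, such values are a description of these libraries only.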

How the data were processed

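Polyadenylated RNA of INS-1E cells was sequenced as paired reads, per the labels' protocols. Tools named, without roles, in the submitters' processing notes are HISAT2 2.0.4 and StringTie 1.3.4d, with cutadapt 1.9, edgeR and DESeq2. Genome build and counting strand: not given in the sources used here. The deposited table holds, per the file headers, FPKM as the authors scaled them to length and depth. Beside these, per the file headers, are estimated counts, used as deposited. Totals are given with the results.

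Features with a mean of at least 1 FPKM (12460) were fitted over all 6 libraries in edgeR 4.0.16 (R 4.3.3) with TMM scaling (factors 0.992 to 1.009), no covariate, and Benjamini-Hochberg adjustment. Intervals are 95%. Alternatives used DESeq2 1.42.0, limma 3.58.1 on log2(FPKM + 1) or log2(FPKM + 0.1), other scalings and filters, counts divided by 4, a replicate block and each library left out. The code was tested on simulated data. The members and lists were chosen with earlier results of these data known. Named genes are all members, every listed pathway gene past the threshold, 4 fixed genes, and the 3 features most like the member with the smallest p; G6pc, Gcg and the beta-cell markers whose groups stood apart were chosen after their values were seen. Promoters come from RefSeq (GRCr8), with 7 of 8 members matched. Results that need certain other listed genes are not reported here, and those genes are left out of the list counts.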

Additional observations from a re-analysis of the deposited data

How the results depend on the processing

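The number of members past the threshold was 0 in all settings but one, and ranged from 0 to 1 with a library left out, the 1 being Slc2a1 without untreated library 1. The median log2 fold change of the members stayed within -0.15 to -0.036 with a library left out. With a library left out, log2 fold changes changed sign for Pfkfb2 (-0.25 to 0.034), Txnip (-0.10 to 0.18) and Slc37a4 (-0.040 to 0.075); the cause was not tested. The other pathway genes past the threshold numbered 7, 12 with DESeq2, 4 with the replicate block, and 3 to 10 with a library left out. All features past the threshold numbered 994, 1753 with DESeq2, 322 with the replicate block, and 231 to 1173 with a library left out; the cause was not tested. The replicate numbers were not treated as pairs: deviations of same-numbered libraries correlated at 0.07, -0.05 and -0.19, and not every library correlated best with its own number. The block ended the calls of Foxa2, Pfkp and Slc37a1. For the share of Hk2 in the sum of Hk1 and Hk2, no other sum was run. Hk1, Hk2 and Slc2a3 rest on few counts, and none passed in the fit with no filter on level.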
